A study of Mus musculus with 8 samples.

Results

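The miRNAs described here were both arms (5p and 3p) of 5 hairpins, miR-770, miR-673, miR-493, miR-337 and miR-540, which lie on mouse chromosome 12 between the start of Meg3 and Rtl1. They were chosen by name and position, and all 10 were found among the 1966 mature miRNA names of the count table. Articular chondrocytes, the cells of joint cartilage, were isolated from the cartilage of the hip end of the femur of wild-type mice aged 3 weeks, whose strain was not given in the sources used here. To find miRNAs that respond to inflammation, cells received vehicle or IL-1β at 1 ng/ml, both for 24 h. Their small RNA was sequenced in 4 libraries per group. IL-1β is a proinflammatory cytokine that activates NF-κB. Nothing stated whether the 4 libraries of a group came from separate animals or cultures. The p-values therefore measure the spread between these libraries, which may be technical.

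miR-540-3p was the only one of the 8 tested miRNAs to pass the test for a change. It fell by 0.46 on the log2 scale in IL-1β-treated cells, to 0.731 of its vehicle mean, and the groups did not overlap. The other abundant arms, miR-673-5p, miR-673-3p and miR-337-5p, did not pass the test. miR-540-5p and the arms of miR-770 and miR-493 were too scarce for changes of that size to be detectable, and miR-493-3p and miR-337-3p had too few counts to be tested.

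A miRNA is cut from one arm of a folded precursor and guides the silencing machinery to messenger RNAs that pair with its seed, a short stretch near its 5′ end. The miRNAs studied here belong to the Dlk1-Dio3 region, an imprinted region in which protein-coding genes such as Dlk1, Rtl1 and Dio3 are active on the chromosome inherited from the father, and non-coding RNAs such as Meg3, Rian and Mirg, with their many miRNAs and small nucleolar RNAs, are active on the chromosome inherited from the mother. The region is known for its role in growth and development and is active in mesenchymal tissues.

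The mature sequences are shown because the seed decides what a miRNA can pair with, and because near-identical relatives would make counts ambiguous. They were taken from RefSeq (GRCm38.p6), 5′ to 3′, with the seed (bases 2 to 8) in capitals.
mmu-miR-770-5p: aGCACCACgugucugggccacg
mmu-miR-770-3p: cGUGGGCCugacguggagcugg
mmu-miR-673-5p: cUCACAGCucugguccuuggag
mmu-miR-673-3p: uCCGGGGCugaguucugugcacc
mmu-miR-493-5p: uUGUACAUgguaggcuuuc
mmu-miR-493-3p: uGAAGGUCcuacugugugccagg
mmu-miR-337-5p: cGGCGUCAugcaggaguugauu
mmu-miR-337-3p: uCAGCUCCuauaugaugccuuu
mmu-miR-540-5p: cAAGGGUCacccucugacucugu
mmu-miR-540-3p: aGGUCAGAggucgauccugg

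The 10 miRNAs had 10 different seeds, so they formed no seed family. Among the 1679 mature names of the same RefSeq table, 8 of the seeds occurred in no other miRNA. The seed of miR-673-5p, UCACAGC, was shared with miR-6985-3p, which had 37 counts over the 8 libraries against 25162 for miR-673-5p. The seed of miR-540-3p, GGUCAGA, was shared with miR-6915-5p, which had 0 counts. Allowing 1 mismatch, each of the 10 sequences was found in its own hairpin only, out of 1005 hairpins searched, so none had a near-identical copy there. All 10 lengths in the count table (19 to 23 nt) equalled the RefSeq lengths. Of the 10, 4 started with U, against 40.5% of the 491 tested miRNAs with a sequence.

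The precursors of the 3 hairpins with an abundant arm are shown with both mature arms in capitals, the 5p arm first, because the arms of these hairpins were used very unequally.
miR-673: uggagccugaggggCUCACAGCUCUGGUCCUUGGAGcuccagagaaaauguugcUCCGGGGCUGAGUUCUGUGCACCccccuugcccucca
miR-337: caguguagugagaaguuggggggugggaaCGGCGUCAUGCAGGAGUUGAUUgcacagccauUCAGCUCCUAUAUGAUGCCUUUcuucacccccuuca
miR-540: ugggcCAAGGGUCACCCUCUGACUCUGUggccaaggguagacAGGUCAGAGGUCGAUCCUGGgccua

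All 5 hairpins lie on the plus strand, in the same direction as Meg3 (chr12:109541001-109571726, GRCm38), within 22.5 kb. Mir770 (chr12:109563692-109563785) overlapped an exon of Meg3 in the GENCODE annotation. Mir673 (chr12:109571990-109572080) starts 0.264 kb beyond the annotated end of Meg3, and Mir493 (chr12:109580233-109580315) starts 8.51 kb beyond it. Mir337 (chr12:109585789-109585885) and Mir540 (chr12:109586080-109586146) are 194 bases apart and were the closest pair. Mir673, Mir493 and Mir540 overlapped no other GENCODE gene. In RefSeq, all but Mir770 fall inside the longer span given for Rtl1 (chr12:109564900-109604418), which is read from the opposite strand.

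Mir337 overlaps Mir3544 on the opposite strand over 61 bases. Whether the counting used strand was not given in the sources used here, and without strand the reads of such a pair cannot be told apart. The arms of miR-3544 were listed with 12 (3p) and 5 (5p) counts in all, against 3418 for miR-337-5p.

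RNAfold gave the 5 hairpins minimum free energies of -58.2 (miR-770), -42.3 (miR-673), -45.0 (miR-493), -49.4 (miR-337) and -40.9 kcal/mol (miR-540), all below the median of -32.0 kcal/mol of the 1005 hairpins. Their GC content ranged from 52.6% to 70.2%, against a median of 51.7%.

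Levels are given as normalized CPM, that is, counts of a miRNA per 1000000 counts of its library after TMM scaling (trimmed mean of M values, a correction for composition). They were not divided by length, and because small RNA ligation favors some sequences, levels of different miRNAs are not molar ratios. Library totals ranged from 616475 to 1568367 counts, so that a single count was worth 0.638 to 1.62 CPM. Chondrocyte markers, the arms of miR-140 and miR-455, were all detected. In sum they took 155686 to 167664 CPM in vehicle libraries and 123579 to 153426 CPM in IL-1β libraries. Every IL-1β library was thus below every vehicle library in this sum, and no marker was called. Marker values are CPM before TMM scaling.

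The means of the 10 miRNAs spanned about 4 orders of magnitude, with miR-673-5p at 3178 ± 110.3 and miR-493-3p at 0.323 ± 0.373 normalized CPM in vehicle-treated cells (SD, n = 4). The low end of this span is uncertain, since miR-493-3p had 2 counts over the 4 vehicle libraries. Of the 10, 8 passed the filter on low values (over 1 CPM in at least 4 libraries). The order among vehicle-treated cells was miR-673-5p, miR-540-3p, miR-337-5p, miR-673-3p, miR-540-5p, miR-770-5p, miR-770-3p and miR-493-5p. Neighbors in this order whose vehicle libraries overlapped were miR-540-3p with miR-337-5p, miR-770-5p with miR-770-3p, and miR-770-3p with miR-493-5p. With IL-1β the means of miR-540-3p and miR-337-5p stood in the opposite order (342 and 399 normalized CPM). miR-673-5p ranked 36th in mean level among 564 tested miRNAs, miR-337-5p ranked 89th and miR-540-3p ranked 91st. The combined share of the 10 in each library was 0.436% ± 0.0104 in vehicle-treated and 0.407% ± 0.0563 in IL-1β-treated cells (SD, n = 4), of which miR-673-5p made up 72.5% to 77.7%. IL-1β replicate 4 had a share of 0.328%, and the other IL-1β libraries had 0.407% to 0.451%.

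**Figure D1:**
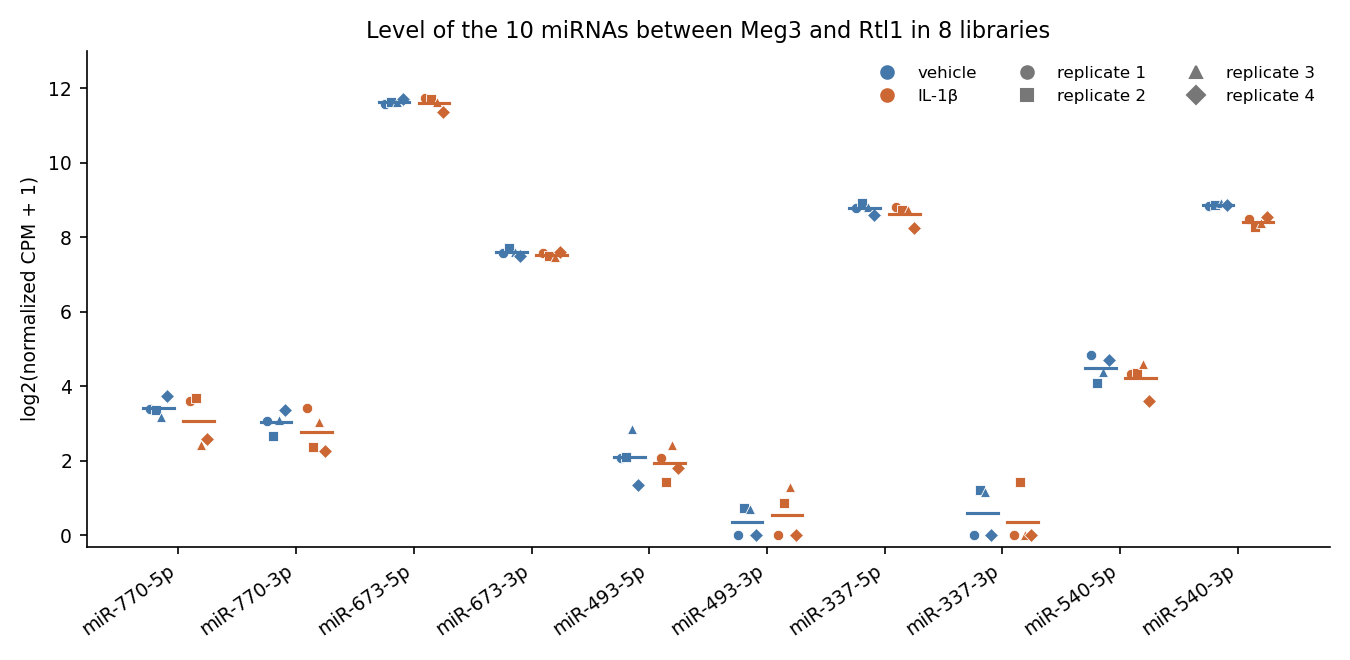
Level of each of the 10 miRNAs as log2(normalized CPM + 1), with 1 point per library (blue, vehicle; orange, IL-1β; the marker shape gives the replicate) and a line at the mean of each group. The groups overlap for every miRNA but miR-540-3p, and miR-493-3p and miR-337-3p sit at or near 0.

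For miR-540-3p, vehicle replicates 1 to 4 had 459, 466, 479 and 466 normalized CPM. IL-1β replicates 1 to 4 had 355, 310.1, 330.2 and 371 normalized CPM. Every IL-1β library was below every vehicle library. The mean fell from 468 ± 8.38 to 342 ± 26.9 normalized CPM (SD, n = 4), that is, by 26.9%. The edgeR log2 fold change was -0.46 (SE 0.0912, 95% interval -0.64 to -0.27, adjusted p = 0.00467). miR-540-3p was called in all 16 alternative settings, with log2 fold changes from -0.50 to -0.44 and adjusted p from 3.64e-05 to 0.0214.

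Of 8 tested members, 1 was therefore called (adjusted p under 0.05 and absolute log2 fold change over 0.3), against 11 of 564 miRNAs, or 1.95%, in either direction and 3, or 0.532%, for falls. Similarly, 1 of the 8 had all IL-1β libraries below all vehicle libraries, as did 17 of 564 miRNAs, or 3.01%. Only miR-540-3p of the 8 had an unadjusted p under 0.05, as did 63 of the 564.

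The spread of miR-540-3p between vehicle libraries was small. Its coefficient of variation was 1.79%, below the 4.58% that counting alone would give at 299 to 767 counts per library. In IL-1β libraries it was 7.86%, with 6.13% from counting at 222 to 368 counts. The edgeR fit shares the estimate of spread across miRNAs and did not rest on the 4 vehicle values alone.

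The opposite arm, miR-540-5p, was far scarcer, at 27.6, 16.02, 19.99 and 24.9 normalized CPM with vehicle and 19.2, 19.4, 23.4 and 11.3 with IL-1β. The groups overlapped, and the lowest value was that of IL-1β replicate 4. Its log2 fold change was -0.22 (SE 0.269, 95% interval -0.78 to 0.33, edgeR adjusted p = 0.805). It ranged from -0.37 without vehicle replicate 2 to -0.045 without IL-1β replicate 4. With 9 to 32 counts per library, a fall as large as that of miR-540-3p was not detectable for this arm.

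miR-337-5p, whose hairpin is next to that of miR-540, had 439, 482, 450 and 385 normalized CPM in vehicle replicates 1 to 4. IL-1β replicates 1 to 4 had 446, 424, 425 and 301 normalized CPM. All IL-1β libraries but replicate 4 were within the vehicle range. The means were 439 ± 40.7 and 399 ± 66.3 (SD, n = 4), and the log2 fold change was -0.15 (SE 0.111, 95% interval -0.37 to 0.08, edgeR adjusted p = 0.744). With single libraries left out the log2 fold change ranged from -0.23 (without vehicle replicate 4) to -0.038 (without IL-1β replicate 4), and none of these fits called it. With all 8 libraries the interval held both no change and a fall to 0.771 of the vehicle level.

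miR-673-5p, the most abundant of the 10, had 3060, 3143, 3183 and 3324 normalized CPM with vehicle and 3417, 3321, 3161 and 2629 with IL-1β. The lowest value was again that of IL-1β replicate 4, and the other IL-1β libraries were within or above the vehicle range. The means were 3178 ± 110.3 and 3132 ± 351 (SD, n = 4), and the log2 fold change was -0.02 (SE 0.0879, 95% interval -0.20 to 0.16, edgeR adjusted p = 0.989). Its direction turned without IL-1β replicate 4 (log2 fold change 0.057).

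The opposite arm, miR-673-3p, had 191, 210.2, 194 and 181 normalized CPM with vehicle and 189, 179, 175 and 193 with IL-1β. Unlike both preceding arms it was not low in IL-1β replicate 4, where it had its highest IL-1β value. The means were 194 ± 12.2 and 184 ± 8.31 (SD, n = 4), and the log2 fold change was -0.08 (SE 0.104, 95% interval -0.30 to 0.13, edgeR adjusted p = 0.807). It ranged from -0.14 without vehicle replicate 4 to -0.041 without vehicle replicate 2.

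**Figure D2:**
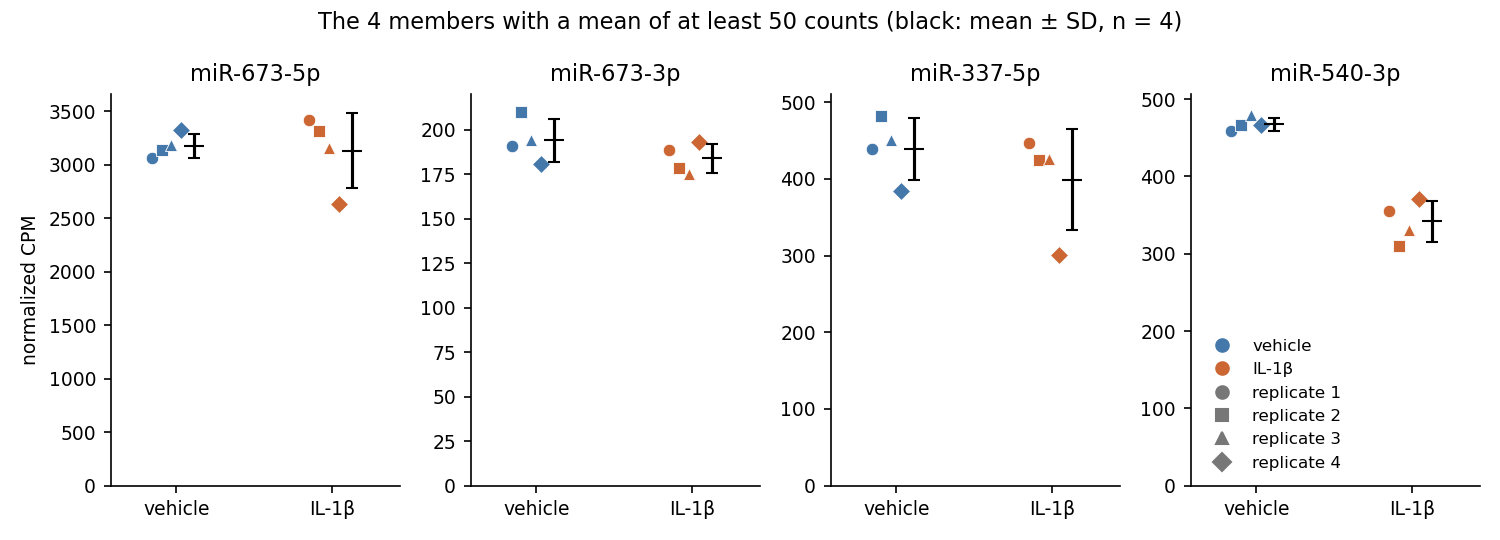
Normalized CPM of the 4 members averaging 50 counts or more, with 1 point per library and the mean ± SD of each group in black (n = 4), on axes that start at 0. For miR-540-3p the IL-1β libraries (310.1 to 371) sit below the vehicle libraries (459 to 479), whereas for miR-673-5p and miR-337-5p only IL-1β replicate 4 (2629 and 301) falls below the vehicle range.

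IL-1β replicate 4 also stood apart from its group over other miRNAs. Over the 195 miRNAs averaging 50 counts or more, the log2 deviation from the mean of the other 3 libraries of the group had an SD of 0.40 in this library and of 0.15 to 0.23 in the other 7. The part this library plays in the values of miR-673-5p and miR-337-5p is given above by leaving it out, and for miR-540-3p the log2 fold change without it was -0.50.

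The arms of miR-770, the hairpin within Meg3, were detected in all 8 libraries at 3 to 14 counts. miR-770-5p had 9.54, 9.34, 8.12 and 12.5 normalized CPM with vehicle and 11.2, 11.8, 4.38 and 5.01 with IL-1β. IL-1β replicates 3 and 4 were below the vehicle range and replicates 1 and 2 were within it. Its log2 fold change was -0.17 (SE 0.373, 95% interval -0.94 to 0.60, edgeR adjusted p = 0.921) and turned to 0.014 without IL-1β replicate 4. miR-770-3p ranged from 5.34 to 9.35 with vehicle and from 3.76 to 9.60 with IL-1β, and its log2 fold change was -0.28 (SE 0.425, 95% interval -1.16 to 0.60, edgeR adjusted p = 0.855), which ranged from -0.53 without IL-1β replicate 1 to -0.12 without IL-1β replicate 2 or 4. Both intervals held the fall seen for miR-540-3p as well as a rise of up to 0.60, so neither a change nor its absence was shown.

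miR-493-5p had 1 to 10 counts per library, and its levels of 1.56 to 6.25 normalized CPM with vehicle and 1.69 to 4.38 with IL-1β overlapped. Its log2 fold change was -0.50 (SE 0.609, 95% interval -1.76 to 0.76, edgeR adjusted p = 0.805). This value rested on single libraries, with -0.065 without vehicle replicate 3 and -0.76 without IL-1β replicate 3. miR-493-3p had 4 counts in all, 1 in each of 4 libraries, and 0 in vehicle replicates 1 and 4 and IL-1β replicates 1 and 4. miR-337-3p had 6 counts in all, 2 in each of 3 libraries (vehicle replicates 2 and 3 and IL-1β replicate 2). In a library at 0, the limit that a count of 0 allows (3 counts) was 3.23 to 4.87 CPM, so no difference between groups was detectable for these 2 arms.

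The share of each arm was next compared within hairpins, a measure that does not depend on the scaling between libraries. The 5p arm made up 99.8% of the counts of miR-337 (exact 95% interval 99.6% to 99.9%, over all 8 libraries) and 94.3% of those of miR-673 (94.0% to 94.6%). For miR-540 the 3p arm prevailed, with 95.4% of counts, and the 5p arm had 4.56% (3.89% to 5.30%). The arms of miR-770 were nearly even, with 58.1% from the 5p arm and an interval that included an equal share (48.9% to 66.9%, 124 counts). For miR-493 the 5p arm had 87.5% of 32 counts (71.0% to 96.5%). These intervals cover counting error only, since no molecular identifiers were described and reads of one amplified molecule may be counted repeatedly. The prevailing arm was therefore not on the same side in all hairpins.

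None of the 3 hairpins with both arms tested was called for a change in arm use. In an edgeR fit of arm by treatment over 142 hairpins, 2 hairpins, or 1.41%, were called, and miR-540, miR-673 and miR-770 were not. For miR-540 the change of the 5p arm exceeded that of the 3p arm by 0.25 on the log2 scale (SE 0.307, 95% interval -0.35 to 0.85, edgeR adjusted p = 0.906). Consequently, the log2 fold change of miR-540-3p was not shown to differ from that of its opposite arm. The mean log2 ratio of 5p to 3p counts of miR-540 was -4.40 with vehicle and -4.22 with IL-1β (exact permutation test, two-sided p = 0.571), and the difference of 0.19 ranged from 0.040 without IL-1β replicate 3 to 0.43 without IL-1β replicate 4. For miR-673 the edgeR difference was 0.06 (SE 0.167, 95% interval -0.27 to 0.39, adjusted p = 0.935), and for miR-770 it was 0.12 (SE 0.628, adjusted p = 0.955).

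**Figure D3:**
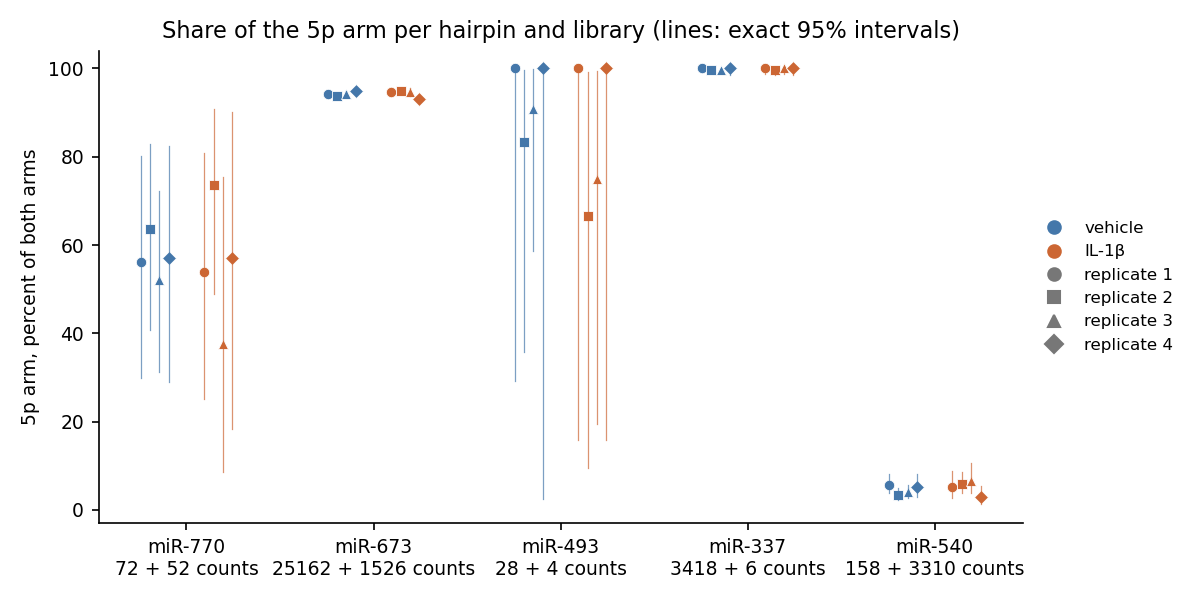
Share of the 5p arm among the counts of both arms, in percent, for each hairpin and library (blue, vehicle; orange, IL-1β), with exact 95% binomial intervals as lines and the total counts of the 5p and 3p arm under each name. The 5p arm takes nearly all counts of miR-673 and miR-337 and few of miR-540, with vehicle and IL-1β libraries overlapping in every hairpin, and the intervals of miR-770 and miR-493 are wide.

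To set miR-540-3p against the other abundant arms without any scaling, its counts were divided by theirs in the same library. Relative to miR-673-3p, miR-540-3p had 2.41, 2.22, 2.47 and 2.58 counts per count with vehicle and 1.88, 1.74, 1.88 and 1.92 with IL-1β, without overlap. Relative to its neighbor miR-337-5p, the ratio was 0.967 to 1.21 with vehicle and 0.796, 0.732, 0.777 and 1.23 with IL-1β, so that IL-1β replicates 1 to 3 were below every vehicle library and replicate 4 was above them. Relative to miR-673-5p, the ratio was 0.1401 to 0.151 with vehicle and 0.104, 0.0934, 0.104 and 0.141 with IL-1β, and again only replicate 4 overlapped with vehicle. In this library miR-540-3p had the highest of its IL-1β levels (371 against 310.1 to 355 normalized CPM), while miR-337-5p and miR-673-5p had their lowest. Whether the change of miR-540-3p differed from that of the other arms was not tested.

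**Figure D4:**
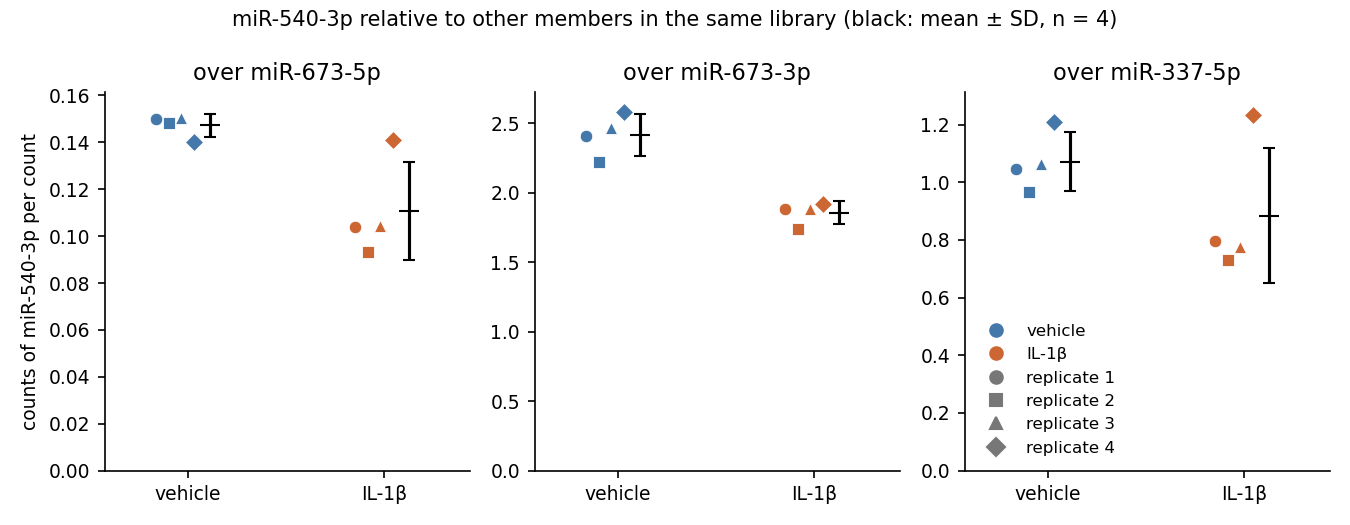
Counts of miR-540-3p per count of miR-673-5p, miR-673-3p and miR-337-5p in the same library, with the mean ± SD of each group in black (n = 4). With miR-673-3p as the reference the groups do not overlap (1.74 to 1.92 against 2.22 to 2.58), whereas with the other 2 references IL-1β replicate 4 reaches the vehicle range or exceeds it.

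The other miRNAs of the Dlk1-Dio3 region, from the start of Meg3 to the end of Dio3, were described for comparison. Of 108 such names in the table, 72 were tested and 1 was called, miR-381-3p of the Mirg group, which fell. Its level was 352, 316, 354 and 346 normalized CPM with vehicle and 264, 267, 273 and 256 with IL-1β (log2 fold change -0.37, SE 0.0932, edgeR adjusted p = 0.0323), and this call was lost in 6 of the 16 alternative settings, namely with the DESeq2 test and without vehicle replicate 1, 3 or 4 or replicate 1 or 3 of IL-1β. With a factor of unwanted variation in the fit, 3 were called (miR-379-5p, miR-381-3p and miR-494-3p). miR-665-3p, whose hairpin follows Mir540, had 0 to 10 counts per library and its log2 fold change was -0.43 (SE 0.552, edgeR adjusted p = 0.809). miR-3544-3p, antisense to miR-337, had 0 to 5 counts per library and a positive fitted value of 1.39 (SE 0.936, edgeR adjusted p = 0.687). None of the 12 tested miRNAs located within Rtl1 and none of the 4 tested miRNAs around Rian was called.

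The median log2 fold change was -0.19 over the 8 tested members, -0.11 over the 72 other miRNAs of the region and 0.01 over all 564. Among those averaging 50 counts or more it was -0.11 for 4 members, -0.08 for 25 others of the region and 0.01 for all 195. The fitted value was below 0 for 8 of 8, for 47 of 72 (65.3%) and for 279 of 564 (49.5%). These are counts of fitted values and not of changes, since among the members and the other miRNAs of the region only miR-540-3p and miR-381-3p passed the test. Without IL-1β replicate 4 they were 6 of 8 members (median -0.08) and 50 of 70 others (median -0.10), with all tested miRNAs at 279 of 537. Under library totals alone they were 8 of 8 and 51 of 72, with all tested miRNAs at 303 of 564. In bulk RNA, fewer cells of a type and less RNA per cell cannot be told apart.

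**Figure D5:**
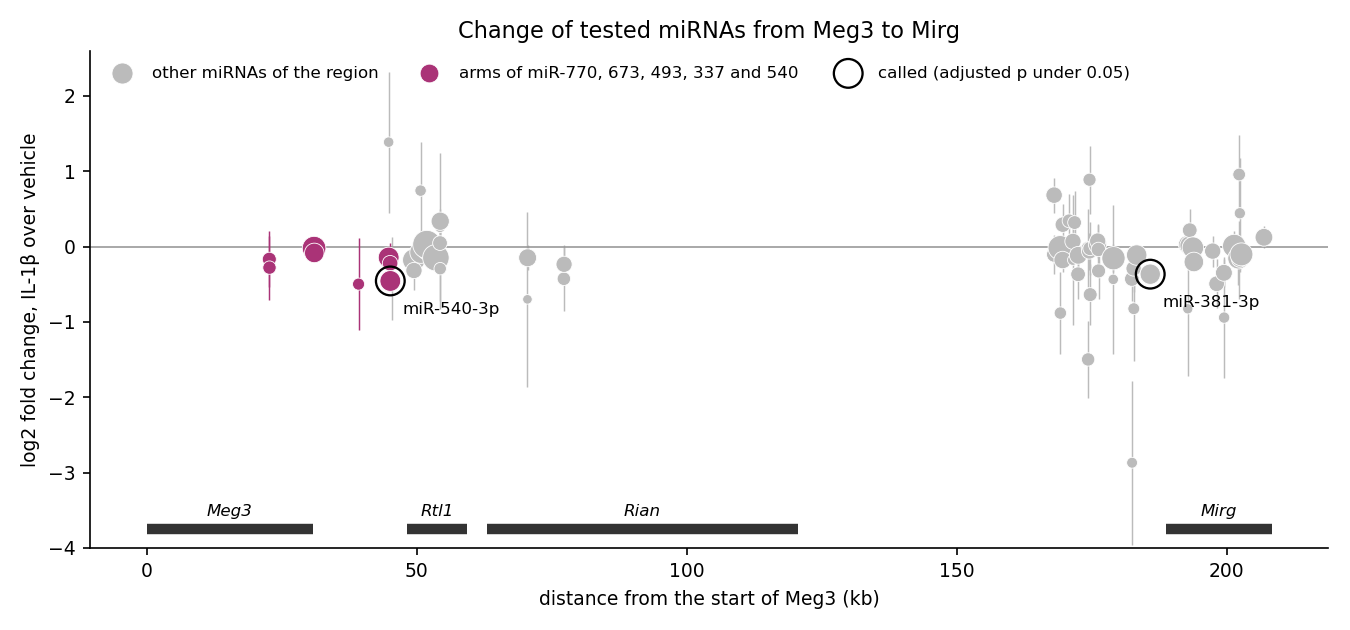
Log2 fold change of tested miRNAs (IL-1β over vehicle, with its SE as a line) against the distance of its start from the start of Meg3 in kb, with larger points for higher mean counts and gene bodies as bars. The 8 members (purple) and 67 other miRNAs up to the end of Mirg (gray) mostly lie near 0 or below, with 5 tested miRNAs left out that lie farther on or were matched to no single position, and the 2 called miRNAs, miR-540-3p (-0.46) and miR-381-3p (-0.37), are circled.

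The miRNAs whose levels most resembled those of the abundant members over the 8 libraries were named by Pearson's r of log2(normalized CPM + 1) among 194 others that averaged 50 counts or more. These values are descriptions, since the libraries share treatment and depth. For miR-540-3p they were miR-501-3p (r = 0.896), miR-381-3p (0.892) and miR-652-3p (0.878), with r of 0.916 to 0.937 without IL-1β replicate 4. For miR-337-5p they were miR-339-3p (0.984), miR-331-3p (0.915) and miR-434-3p (0.877), which had r of 0.916, 0.475 and -0.393 without that library. For miR-673-5p they were miR-497a-5p (0.954), miR-7046-3p (0.944) and miR-667-3p (0.912), which dropped to 0.774, 0.682 and 0.549 without it. For miR-673-3p they were miR-196b-5p (0.889), miR-148a-3p (0.844) and miR-411-5p (0.824). Of these 12, 4 came from the Dlk1-Dio3 region, 1 for each member. The region held 4 members and 25 other miRNAs among all 195 that averaged 50 counts or more. Among the members themselves, the highest r was 0.729, between miR-673-5p and miR-337-5p, and it was -0.378 without IL-1β replicate 4. Without that library the highest was 0.806, between miR-673-3p and miR-337-5p (0.211 with it). miR-673-3p and miR-540-3p had an r of 0.601 with and 0.644 without it, and the other 3 pairs lay between -0.441 and 0.220 in both cases.

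Markers of other cells were low in both groups. Liver or serum miRNAs (3 of 7 names detected) took 52.1 to 72.7 CPM with vehicle and 71.4 to 109.8 with IL-1β, and haematopoietic miRNAs (4 of 9 detected, with miR-142a-3p, miR-223-3p, miR-451a and both arms of miR-144 at 0) took 46.2 to 64.4 and 25.95 to 47.1. Neural miRNAs (3 of 7 detected, with both arms of miR-124 at 0) took 27.7 to 37.6 and 21.02 to 31.4. Epithelial miRNAs had 28 counts and endothelial miRNAs 8 counts in all, and the 15 muscle names were at 0. Their part in the values of the members was not tested.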

How the data were processed

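Small RNA was sequenced in 8 libraries (4 vehicle, 4 IL-1β). According to the methods and the submitters' processing notes, the authors trimmed reads with cutadapt, aligned them to mm10 with STAR (2.4.2a in the notes; the methods name another version) and counted them with featureCounts. The deposited table held whole-number counts per mature miRNA in 1 column per library. The authors also described RUVseq correction. Whether the deposited counts precede it was not given in the sources used here and cannot be told from the values, and they were used as deposited. How reads with several matches were counted was not given in the sources used here.

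Counts were tested across all miRNAs with the robust quasi-likelihood test of edgeR 4.0.16 (R 4.3.3, two-sided) with TMM scaling and group as the only term, for miRNAs over 1 CPM in at least 4 libraries. A call needed a Benjamini-Hochberg adjusted p under 0.05 over all 564 tested and an absolute log2 fold change over 0.3. The SE was the log2 fold change divided by the square root of F. The arms of 142 hairpins were compared by an arm-by-treatment term with library as a block. Both fits were tested on simulated data. Log2 ratios of arms used a pseudocount of 0.5. The alternatives were DESeq2 1.42.0, other scaling and filters, a fit that was not robust, a replicate block, a factor of unwanted variation, and each library left out. Exact binomial intervals were at 95%. At 616475 to 1568367 counts per library, counting error limits precision for the scarce arms. Hairpins were folded with ViennaRNA 2.7.2. Positions are from GENCODE M21 and RefSeq (GRCm38, the build of mm10).

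The members and lists were chosen with earlier results of these data known. The comparison region was extended, after seeing the data, by 5 names that RefSeq places from Meg3 to Dio3 and the lists lacked. By rule, all members, called miRNAs of the region, miR-665 and the 3 miRNAs most like each member with a mean of at least 50 counts are named. miR-3544, miR-6985-3p and miR-6915-5p were named after their overlap or shared seed was seen, and the ratios between members were also chosen after the data were seen.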

Additional observations from a re-analysis of the deposited data

Results flagged for a closer look

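Among 24 groups of 4 values examined (8 members, 3 arm ratios and the summed level, in each treatment), 2 held a library far from the other 3. Chance alone gives about 1 in 20. Both were IL-1β replicate 4. For miR-337-5p this library had 301 normalized CPM against 424 to 446 in the other IL-1β libraries, a gap of 0.846 of the range. The log2 ratio of the 5p to the 3p arm of miR-673 was 3.76 in this library against 4.17 to 4.21 in the others, a gap of 0.896 of the range. In that hairpin the 5p arm was low (2629 normalized CPM) and the 3p arm was not (193 normalized CPM). The cause was not tested.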

How the results depend on the processing

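Under all 16 alternatives the number of members called was 1, and it was miR-540-3p each time. The 11 miRNAs called over the whole table became 7 with the DESeq2 test, 28 with a factor of unwanted variation and 19 with the replicate block, and ranged from 6 to 19 when single libraries were left out (6 without vehicle replicate 4, 7 without vehicle replicate 2 or IL-1β replicate 3, 19 without IL-1β replicate 4). Without IL-1β replicate 4 the log2 fold changes of miR-770-5p and miR-673-5p reversed to 0.014 and 0.057, neither called, and with single libraries left out these ranged from -0.53 to 0.014 and from -0.081 to 0.057. For the other 6 tested members neither the direction nor the call changed in any alternative that tested them. The 2 hairpins with called arm use became 1 to 2 with a library left out (1 without IL-1β replicate 1 or vehicle replicate 2, 3 or 4), and no member hairpin was among them. With a library left out, the difference between groups in the log2 ratio of the arms ranged from -0.43 to 0.25 for miR-770, from 0.0024 to 0.15 for miR-673 and from 0.040 to 0.43 for miR-540. The log2 ratio of the summed level of the members was -0.08, and -0.25 without miR-673-5p. With a library left out it ranged from -0.12 (without IL-1β replicate 1) to -0.01 (without IL-1β replicate 4).

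Same-numbered libraries had correlations of deviations from -0.34 to 0.17, and 2 of 4 vehicle libraries correlated best with their own number. With 4 libraries per group, these values cannot show whether the numbers pair the samples. The replicate block changed no call among the members. At 1 to 32 counts per library, miR-770-5p, miR-770-3p, miR-493-5p and miR-540-5p allow no statement on small changes.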
